A study of Mus musculus with 6 samples.

Results

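The genes described here encode 7 secreted or apical proteins of salivary and apocrine glands: Pip, Aqp5, Scgb1b27, Amy1, Lpo, Muc19 and Ltf. They are 7 of 19938 genes that the array measured with a probe set assigned to exactly 1 gene symbol, and each gene is represented by the probe set with the highest mean over the 6 tumors. The genes were chosen by their known gland roles and by their differences between JAM-A-/- and JAM-A+/+ tumors in these same arrays, which were already known. Those differences are therefore described here and carry no test.

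Expression was profiled in 3 tumors lacking JAM-A (JAM-A-/- 5333, 5346 and 5347) and 3 with it (JAM-A+/+ 5369, 5370 and 5393), with RNA of each tumor on 1 Affymetrix Mouse Gene 1.0 ST array. All 6 were mammary tumors at an early stage from mice that carried the polyoma middle T oncogene driven by the MMTV promoter, a transgene that both genotypes shared. The JAM-A-/- mice lacked junctional adhesion molecule-A, a small transmembrane protein of cell contacts encoded by F11r, and the methods of the study name JAM-A+/+ littermates as controls. The tissue label of tumor 5347 does not mention the loss of JAM-A, which its title and genotype give, and nothing in the labels says whether the tumors of a group came from different mice, so the p-values printed reflect the spread of these particular tumors and no more. The sources used here do not give age, sex or strain.

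F11r was at log2 5.91, 5.55 and 6.53 in JAM-A-/- tumors 5333, 5346 and 5347, against 10.1, 10.23 and 10.47 in JAM-A+/+ tumors 5369, 5370 and 5393, so every tumor matched its genotype label. The difference was -4.27 (SE 0.24, adjusted p = 0.00667 from limma), and F11r was the 1 gene of 19938 (0.00502%) with an adjusted p under 0.05. With 1 tumor left out its adjusted p was 0.00357 to 0.0839, and it exceeded 0.05 without tumor 5333, 5369, 5370 or 5393. Array medians lay between 6.23 and 6.34. The median difference of all genes was 0.09 and 71.8% of genes had a difference above 0. Tumor 5346 had 55 genes more than 1 log2 unit above every other tumor, tumor 5333 had 26 and the other tumors had 1 to 8, while tumor 5369 had 23 genes more than 1 unit below every other tumor.

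Salivary acini and apocrine epithelium are secretory epithelia related in origin to the mammary gland, and they share much of its secretory machinery. Acinar cells load amylase, mucins and small secreted proteins into granules and move salt and water into the lumen, where aquaporin 5 is the main apical water channel of the salivary acinus. Apocrine cells of human breast are recognised by prolactin-inducible protein, and milk and saliva both carry lactoferrin and lactoperoxidase, proteins of mucosal defence.

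Values are log2 expression after RMA, the authors' normalization, and levels of different probe sets are not compared with each other because probes differ in brightness. A summed level of a list is the log2 of the sum of its linear values, so its brightest probe sets weigh most. A difference is the mean of the JAM-A-/- tumors minus the mean of the JAM-A+/+ tumors, and its standard error (SE) is that of limma, which steadies the spread of each probe set with that of all others. In whole tumors, fewer cells of a type and less RNA per cell cannot be told apart. A single tumor was said to carry a difference where leaving it out took the difference below 0.5 of its full value or turned its sign.

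Of the 7 genes, 3 (Pip, Scgb1b27 and Aqp5) had a fold of 1.3 or more, with p under 0.05 before adjustment, and higher values in JAM-A-/- tumors, beside 4.73% of all genes, and 0 met these criteria in the lower direction, beside 0.592%. For 2 genes, Scgb1b27 and Aqp5, all 3 JAM-A-/- tumors lay above all 3 JAM-A+/+ tumors, beside 12.4% of all genes, and for 0 genes they lay below, beside 2.55%. These counts follow from the choice of the genes, so the p threshold only describes them and tests nothing here. The median difference of the 7 genes was 0.10, beside the 0.09 of all genes, and it was 0.07 to 0.24 with 1 tumor left out. A single tumor carried the difference in 5 of the 7 genes and tumor 5333 was such a tumor in all 5, while the differences of Scgb1b27 and Aqp5 were carried by no tumor. Only for Pip was tumor 5333 the sole such tumor. In Amy1 and Muc19 tumor 5393 did so as well, and in Lpo and Ltf tumor 5369. The differences of these 4 genes were smaller than their SE. How many of all genes have such a tumor was not counted.

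**Figure D1:**
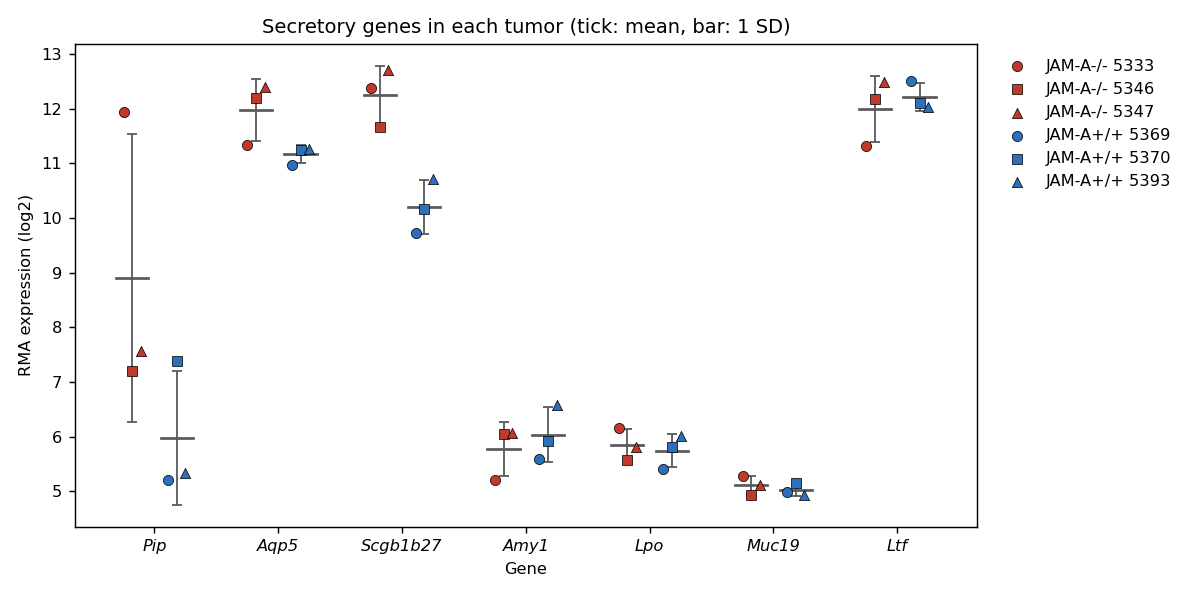
Log2 RMA expression (y axis) of the 7 secretory genes (x axis) in each of 6 tumors, JAM-A-/- red and left of JAM-A+/+ blue. Ticks are means of 3 tumors and bars are 1 SD, and Pip in JAM-A-/- tumor 5333 stands at 11.93 while its other 5 values lie between 5.2 and 7.57.

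The 300-base windows around the annotated start of the 3 genes with the highest differences are shown. A single tumor carried the difference of Pip, and no tumor carried those of Scgb1b27 and Aqp5. Sequences are those of RefSeq for mouse assembly GRCm38.p6, with 250 bases before and 50 from the start, in lower case. Capitals mark matches, on either strand, to TATAAA (the TATA box), TGTTCT (the core of the androgen and glucocorticoid receptor site), TTCNNNGAA (the core bound by STAT5) and GCCNNNGGC (the core bound by AP-2).
Pip, chr6:41847299-41847598, plus strand: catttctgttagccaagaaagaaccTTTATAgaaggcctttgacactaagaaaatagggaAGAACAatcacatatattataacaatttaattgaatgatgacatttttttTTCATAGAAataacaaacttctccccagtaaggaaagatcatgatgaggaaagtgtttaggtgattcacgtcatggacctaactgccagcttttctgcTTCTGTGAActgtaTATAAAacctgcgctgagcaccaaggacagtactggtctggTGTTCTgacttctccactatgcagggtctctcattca
Scgb1b27, chr7:34021231-34021530, plus strand: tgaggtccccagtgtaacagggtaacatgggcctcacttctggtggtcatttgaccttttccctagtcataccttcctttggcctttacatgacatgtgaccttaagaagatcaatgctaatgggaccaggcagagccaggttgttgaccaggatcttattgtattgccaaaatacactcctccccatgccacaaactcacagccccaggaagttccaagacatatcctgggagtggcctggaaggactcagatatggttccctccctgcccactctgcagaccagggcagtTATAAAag
Aqp5, chr15:99590778-99591077, plus strand: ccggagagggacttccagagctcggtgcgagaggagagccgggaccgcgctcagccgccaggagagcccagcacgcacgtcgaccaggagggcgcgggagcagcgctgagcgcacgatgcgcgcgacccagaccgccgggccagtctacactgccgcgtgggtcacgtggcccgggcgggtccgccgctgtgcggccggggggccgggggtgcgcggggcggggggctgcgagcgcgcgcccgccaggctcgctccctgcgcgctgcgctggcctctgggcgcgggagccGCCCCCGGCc

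The Pip window held 6 matches, none of them overlapping another. They were TATAAA at -28 on the gene's strand and at -225 on the opposite strand, TTCNNNGAA at -140 and -42, and TGTTCT at 14 on the gene's strand and at -190 on the opposite strand, counted from the annotated start. The Scgb1b27 window held TATAAA at 43, downstream of the annotated start, and the Aqp5 window held GCCNNNGGC at 41. Of 32851 promoter windows of the same length, 13.6% held TATAAA, 19.0% TGTTCT, 8.3% TTCNNNGAA and 16.6% GCCNNNGGC. G and C made up 38.0% of the Pip window, 49.7% of the Scgb1b27 window and 79.7% of the Aqp5 window, against a median of 52.7% over all windows. Windows were found for 6 of the 7 genes. The windows of Lpo and Ltf held no match, and the 2 windows of Amy1 held TGTTCT at -208, -136 and -55 in one and TGTTCT at -242 with TATAAA at -63 in the other. A match says only that the letters are there.

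Pip encodes prolactin-inducible protein, a small secreted glycoprotein of saliva, tears and apocrine sweat. Pip (probe set 10537679) was at 11.93, 7.2 and 7.57 in JAM-A-/- tumors 5333, 5346 and 5347, against 5.2, 7.39 and 5.34 in JAM-A+/+ tumors 5369, 5370 and 5393. Tumor 5333 stood far above all others, 20.5-fold over the next, and the groups overlapped, since JAM-A+/+ tumor 5370 lay above JAM-A-/- tumor 5346. The means were 8.90 ± 2.63 in JAM-A-/- and 5.98 ± 1.23 in JAM-A+/+ tumors (SD, n = 3 each), a difference of 2.92 (SE 1.22) or a fold of 7.59. Without tumor 5333 the difference was 1.41, a fold of 2.65 and a share of 0.482 of the full difference, so this 1 tumor carried it. The medians, 7.57 in JAM-A-/- and 5.34 in JAM-A+/+ tumors, differed by 2.23. Leaving out each tumor in turn gave differences of 1.41 to 3.77, the highest without tumor 5346.

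Scgb1b27 encodes the alpha subunit of a mouse salivary androgen-binding protein, a secretoglobin that pairs with a beta subunit. Scgb1b27 (probe set 10552121) was at 12.38, 11.66 and 12.7 in JAM-A-/- tumors 5333, 5346 and 5347, against 9.72, 10.16 and 10.71 in JAM-A+/+ tumors 5369, 5370 and 5393. All JAM-A-/- tumors lay above all JAM-A+/+ tumors, with a gap of 0.95 between the nearest, tumors 5346 and 5393. The means were 12.25 ± 0.53 in JAM-A-/- and 10.20 ± 0.50 in JAM-A+/+ tumors (SD, n = 3 each), a difference of 2.05 (SE 0.32) or a fold of 4.14. With any 1 tumor left out the difference stayed between 1.81 and 2.34, and no tumor carried it. A second probe set of Scgb1b27 (10552115) read 8.23, 7.09 and 7.7 in JAM-A-/- tumors 5333, 5346 and 5347, against 5.65, 5.68 and 6.33 in JAM-A+/+ tumors 5369, 5370 and 5393, again with no overlap. Its difference was 1.79 (SE 0.30), and its highest tumor was 5333 rather than 5347. Mouse has many close copies of this gene, so the signal of both probe sets may include transcripts of other copies.

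The partner subunit was set beside it. Scgb2b27, the beta subunit of the same pair, was at 12.6, 12.17 and 12.99 in JAM-A-/- tumors 5333, 5346 and 5347, against 12.54, 11.68 and 12.46 in JAM-A+/+ tumors 5369, 5370 and 5393. Both genotypes overlapped, and the difference was 0.36 (SE 0.28, adjusted p = 0.648 from limma). Of 31 other secretoglobins listed, 9 had a probe set of their own, 0 met the criteria in either direction, and their median difference was 0.12, or 0.08 without tumor 5333. Chosen after their values were seen, Scgb1c1 and Scgb2b24 shared the peak of Pip in tumor 5333. Scgb1c1 was at 9.89 in that tumor, at 7.47 and 7.91 in JAM-A-/- tumors 5346 and 5347, and at 7.65, 7.7 and 7.7 in the JAM-A+/+ tumors. Scgb2b24, another beta-type subunit, was at 6.63 in tumor 5333, at 4.12 and 4.83 in the other JAM-A-/- tumors, and at 4.71, 3.88 and 4.32 in the JAM-A+/+ tumors. For both genes tumor 5333 stood alone and the other JAM-A-/- tumors lay around the JAM-A+/+ values.

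Aqp5 encodes aquaporin 5, a water channel of the apical membrane of salivary, lacrimal and sweat gland cells. Aqp5 (probe set 10426767) was at 11.33, 12.2 and 12.4 in JAM-A-/- tumors 5333, 5346 and 5347, against 10.97, 11.25 and 11.26 in JAM-A+/+ tumors 5369, 5370 and 5393. There was no overlap, but only by 0.07 between tumors 5333 and 5393, and tumor 5333 was the lowest of its genotype. The means were 11.98 ± 0.57 in JAM-A-/- and 11.16 ± 0.16 in JAM-A+/+ tumors (SD, n = 3 each), a difference of 0.82 (SE 0.27) or a fold of 1.76. Without tumor 5333 the difference was 1.14, the highest of the values with 1 tumor left out, and the lowest was 0.60 without tumor 5347, so no tumor carried it. Among 11 other aquaporins, 1 met the criteria in the higher direction and 0 in the lower, beside 4.73% and 0.592% of all genes. Their median difference was 0.06, or 0.14 without tumor 5333. The 1 gene was Aqp1, a water channel of endothelium and other cells, at 7.81, 8.63 and 8.61 in JAM-A-/- tumors 5333, 5346 and 5347, against 7.2, 7.73 and 7.81 in JAM-A+/+ tumors 5369, 5370 and 5393. Its groups met at the value shared by tumors 5333 and 5393, and the difference was 0.77 (SE 0.26, adjusted p = 0.392 from limma).

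The other 4 genes had differences between -0.26 and 0.10, and the groups overlapped in each. No detection call was used for any probe set, so a low value of these genes may be background. In each of them, leaving out either of 2 tumors turned the difference or took it below 0.5 of its full value. Leaving out some of the other tumors enlarged it, as for Amy1, at -0.48 without tumor 5369.

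Amy1 encodes an alpha-amylase of the salivary gland and liver that digests starch. Amy1 (probe set 10501555) was at 5.2, 6.05 and 6.07 in JAM-A-/- tumors 5333, 5346 and 5347, against 5.59, 5.92 and 6.58 in JAM-A+/+ tumors 5369, 5370 and 5393. Tumor 5333 was the lowest of all 6 and JAM-A+/+ tumor 5393 the highest. The means were 5.77 ± 0.50 in JAM-A-/- and 6.03 ± 0.50 in JAM-A+/+ tumors (SD, n = 3 each), a difference of -0.26 (SE 0.31), which became 0.03 without tumor 5333 and 0.02 without tumor 5393. None of the 6 other amylase genes listed had a probe set assigned to it alone.

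Lpo encodes lactoperoxidase, an antibacterial haem peroxidase of milk, saliva and tears. Lpo (probe set 10389639) was at 6.16, 5.57 and 5.81 in JAM-A-/- tumors 5333, 5346 and 5347, against 5.41, 5.81 and 6.01 in JAM-A+/+ tumors 5369, 5370 and 5393. The highest value was in tumor 5333 and the lowest in JAM-A+/+ tumor 5369, with the others mixed between them. The means were 5.85 ± 0.30 in JAM-A-/- and 5.74 ± 0.31 in JAM-A+/+ tumors (SD, n = 3 each), and the difference of 0.10 (SE 0.20) turned to -0.05 without tumor 5333 and to -0.06 without tumor 5369. Of 7 other haem peroxidases and their maturation factors, 0 met the criteria in either direction, with a median of 0.03, or -0.01 without tumor 5333. Those with the highest means were Duoxa1, a maturation factor of dual oxidases, with a difference of 0.15 (-0.03 after quantile normalization of all probe sets), and Pxdn, a peroxidase of basement membrane, with 0.17.

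Muc19 encodes a gel-forming mucin of the sublingual gland. Muc19 (probe set 10426383) was at 5.28, 4.93 and 5.12 in JAM-A-/- tumors 5333, 5346 and 5347, against 4.99, 5.15 and 4.93 in JAM-A+/+ tumors 5369, 5370 and 5393. All 6 values lay close together, with tumor 5333 the highest. The means were 5.11 ± 0.18 in JAM-A-/- and 5.02 ± 0.11 in JAM-A+/+ tumors (SD, n = 3 each), a difference of 0.09 (SE 0.13), which was 0.04 without tumor 5393 and 0.00 without tumor 5333. A second probe set (10426385) had means of 4.63 ± 0.09 in JAM-A-/- and 4.40 ± 0.14 in JAM-A+/+ tumors (SD, n = 3 each) and a difference of 0.23 (SE 0.12). Of 13 other mucins, 0 met the criteria in either direction, and the median of 0.03 became -0.02 without tumor 5333. The membrane mucin genes with the highest means, Muc15 and Muc1, had differences of -0.68 and -0.30. Without tumor 5333 these were -0.27 and -0.18, so by the rule above that tumor carried the difference of Muc15. Muc15 was at 10.16 in tumor 5333 and at 11.21 to 11.82 in the other tumors.

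Ltf encodes lactoferrin, an iron-binding protein of milk, glandular secretions and neutrophil granules. Ltf (probe set 10589703) was at 11.32, 12.18 and 12.48 in JAM-A-/- tumors 5333, 5346 and 5347, against 12.51, 12.1 and 12.02 in JAM-A+/+ tumors 5369, 5370 and 5393. Tumor 5333 was the lowest of all and the other 5 tumors lay between 12.02 and 12.51. The means were 11.99 ± 0.60 in JAM-A-/- and 12.21 ± 0.26 in JAM-A+/+ tumors (SD, n = 3 each), and the difference of -0.22 (SE 0.29) was -0.07 without tumor 5369 and turned to 0.12 without tumor 5333. Of 4 measured transferrins and transferrin receptors, 1 met the criteria, higher in JAM-A-/- tumors: Tfrc, the receptor that takes up iron-loaded transferrin, was at 10.9, 10.87 and 10.71 in JAM-A-/- tumors 5333, 5346 and 5347, against 10.26, 10.6 and 10.14 in JAM-A+/+ tumors 5369, 5370 and 5393. No overlap was seen for Tfrc (difference 0.49, SE 0.15, adjusted p = 0.357 from limma). Over all genes 4.73% met the criteria in the higher direction, and 12.4% had all JAM-A-/- tumors above all JAM-A+/+ tumors.

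**Figure D2:**
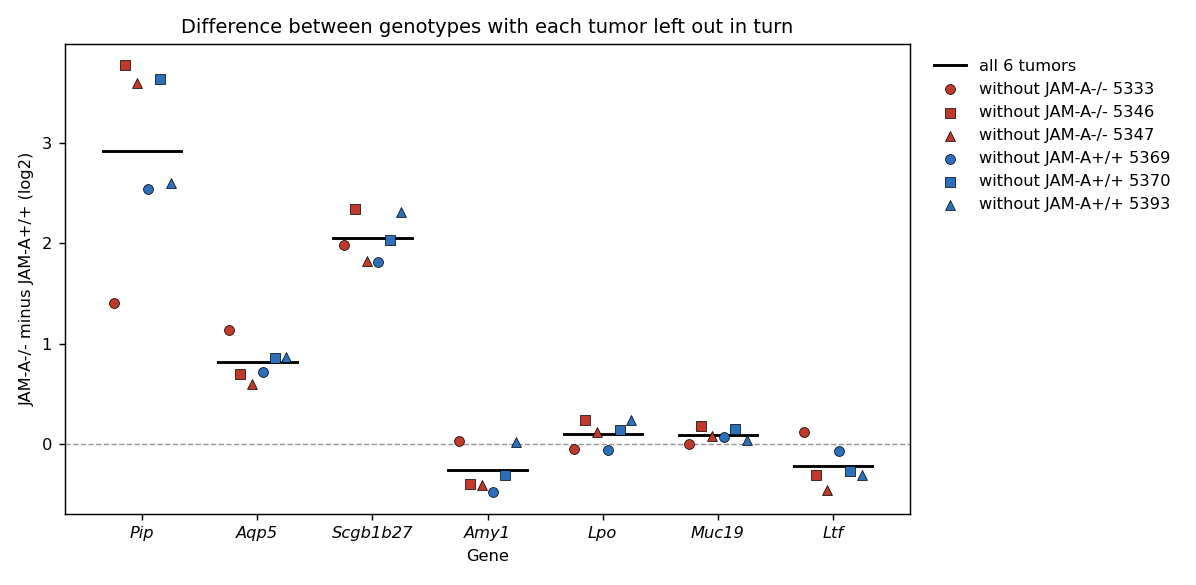
The JAM-A-/- minus JAM-A+/+ difference in log2 units (y axis) of each of 7 genes (x axis), with all 6 tumors as a black line and with each tumor left out in turn as a point, in the colour of the tumor that was left out. The Pip difference of 2.92 drops to 1.41 without tumor 5333, and those of Amy1, Lpo and Ltf cross the dashed line at 0 without that tumor.

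Tumor 5333 was the highest of the 6 for 3 of the genes (Pip, Lpo and Muc19) and the lowest for 2 (Amy1 and Ltf). The 7 genes did not share 1 pattern over the tumors. After each gene was centred on its mean, the root mean square difference between 2 genes over the 6 tumors was lowest for Lpo and Muc19, at 0.21, and Pip lay 1.71 to 2.55 from each of the others. Genes were not scaled to equal spread, so this distance also reflects how widely each gene ranged. The range over the 6 tumors was 0.75 for Lpo, 0.35 for Muc19 and 6.73 for Pip. A low distance between 2 nearly flat genes therefore does not show a shared pattern. Scgb1b27 and Aqp5 lay 0.80 apart, with Scgb1b27 high and Aqp5 near its mean in tumor 5333.

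The genes with the pattern nearest to each of the wider-ranging members were found by the same distance, which used the values of all 6 tumors, and no test is drawn from their nearness. Aqp1, Cldn10 and Tfap2b were also on lists of related genes and were counted there, as were Dcpp1 and Dcpp2, among the salivary gland markers. The adjusted p given for Aqp1 and Cldn10 belong to those lists and add nothing to their nearness. Nearest to Pip were Dcpp2 at 1.02 and Dcpp1 at 1.08, which encode demilune cell and parotid proteins of mouse saliva, followed by Gm21286 at 1.33, Oit1 at 1.43 and the arginase gene Arg1 at 1.48. Dcpp2 was at 10.72, 6.08 and 5.52 in JAM-A-/- tumors 5333, 5346 and 5347, against 5.64, 5.43 and 5.8 in JAM-A+/+ tumors 5369, 5370 and 5393. Dcpp1 was at 11.24, 8.22 and 7.72 in JAM-A-/- tumors 5333, 5346 and 5347, against 6.95, 7.97 and 7.99 in JAM-A+/+ tumors 5369, 5370 and 5393. Both peaked in tumor 5333 as Pip did, and neither repeated the higher Pip value of JAM-A+/+ tumor 5370. Dcpp1 and Dcpp2 are near copies of one another, and probes may not separate them.

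Nearest to Scgb1b27 were Cldn10 at 0.26, the calcium pump gene Atp2a3 at 0.41, Cpe, which encodes carboxypeptidase E of secretory granules, at 0.44, the noradrenaline transporter gene Slc6a2 at 0.47 and Tfap2b, which encodes a transcription factor of the AP-2 family, at 0.52. Cldn10, a claudin of secretory epithelia, was at 9.77, 8.54 and 10.08 in JAM-A-/- tumors 5333, 5346 and 5347, against 7.3, 7.12 and 7.76 in JAM-A+/+ tumors 5369, 5370 and 5393. It had the same order as Scgb1b27 within the JAM-A-/- tumors, highest in 5347 and lowest in 5346. Nearest to Aqp5, at 0.12 to 0.14, were the glycolytic enzyme gene Aldoa, Adamtsl2, the kinase gene Plk2, Aqp1 and the nucleoside transporter gene Slc29a1. For Amy1 the nearest were Apol7a at 0.10 and Fosl2, Fgb, Slc5a1 and Agpat2 at 0.17, and for Ltf they were Arhgef6 at 0.07, Cdc42ep3 at 0.10, Naaladl2 at 0.13 and Hnmt and Rgl3 at 0.14.

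**Figure D3:**
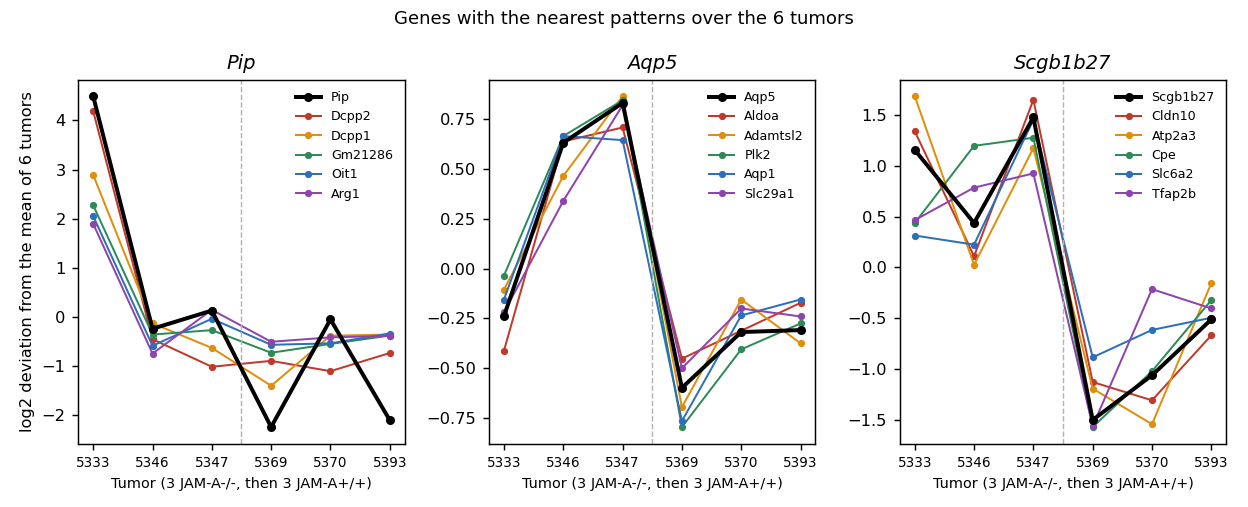
Log2 deviation from the mean of the 6 tumors (y axis) by tumor (x axis, 3 JAM-A-/- left and 3 JAM-A+/+ right of the dashed line) for Pip, Aqp5 and Scgb1b27 in black and the 5 genes nearest to each in colour. Dcpp2 and Dcpp1 peak with Pip in tumor 5333, while Cldn10 follows Scgb1b27 with high values in tumors 5333 and 5347.

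Genes of salivary and secretory function were then counted around the 7 genes. Of 28 measured salivary gland markers out of 38 listed, 26 had a difference above 0, 4 met the criteria in the higher direction and 0 in the lower, with a median of 0.26, or 0.23 without tumor 5333. Over all genes 71.8% had a difference above 0, 4.73% met the criteria in the higher and 0.592% in the lower direction, and the median was 0.09. The markers that met the criteria were Bhlha15, a transcription factor of serous secretory cells, at 0.64, Car6, the secreted carbonic anhydrase of saliva, at 0.87, Bpifb1, a secreted protein of mucosal defence, at 0.84, and Tcn2, a vitamin B12 carrier, at 0.45. Their adjusted p from limma were 0.358, 0.392, 0.366 and 0.41. Car6 was at 12.89, 11.88 and 13 in JAM-A-/- tumors 5333, 5346 and 5347, against 11.53, 11.66 and 11.97 in JAM-A+/+ tumors 5369, 5370 and 5393. Like Scgb1b27, it was high in tumors 5333 and 5347, but its value in tumor 5346 lay below that of JAM-A+/+ tumor 5393.

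The summed level of the 28 markers ranged from log2 13.3 to 14.26 in JAM-A-/- tumors and from 13.06 to 13.31 in JAM-A+/+ tumors. Car6 and Tcn2, which both met the criteria, were the brightest markers in every tumor, so the sum was mostly theirs. Tcn2 was at 12.03 to 12.61 in JAM-A-/- and at 11.8 to 11.96 in JAM-A+/+ tumors. Of the 28, 8 were highest in tumor 5333, and more, with Car6, Bhlha15 and Tcn2 among them, were highest in tumor 5347. The shares of all genes highest in each tumor were not counted. Among the markers highest in tumor 5333, Smr2, a submaxillary gland secreted protein, was at 7.72, 4.67 and 6.18 in JAM-A-/- tumors 5333, 5346 and 5347, against 6.53, 4.55 and 5.31 in JAM-A+/+ tumors 5369, 5370 and 5393. Prol1, a proline-rich secreted protein of salivary and tear glands, was instead highest in JAM-A+/+ tumor 5369, at 9.19, against 5.26 to 7.6 in the other 5 tumors. Bpifa2, the parotid secretory protein, was at 4.5, 4.15 and 5.24 in JAM-A-/- tumors 5333, 5346 and 5347, against 4.15, 4.96 and 4.84 in JAM-A+/+ tumors 5369, 5370 and 5393. Markers of salivary acini thus differed in tumor 5333, where Dcpp1 and Dcpp2 peaked with Pip and Bpifa2 lay within the range of the other tumors. Smr2, Prol1 and Bpifa2 were chosen after their values were seen.

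**Figure D4:**
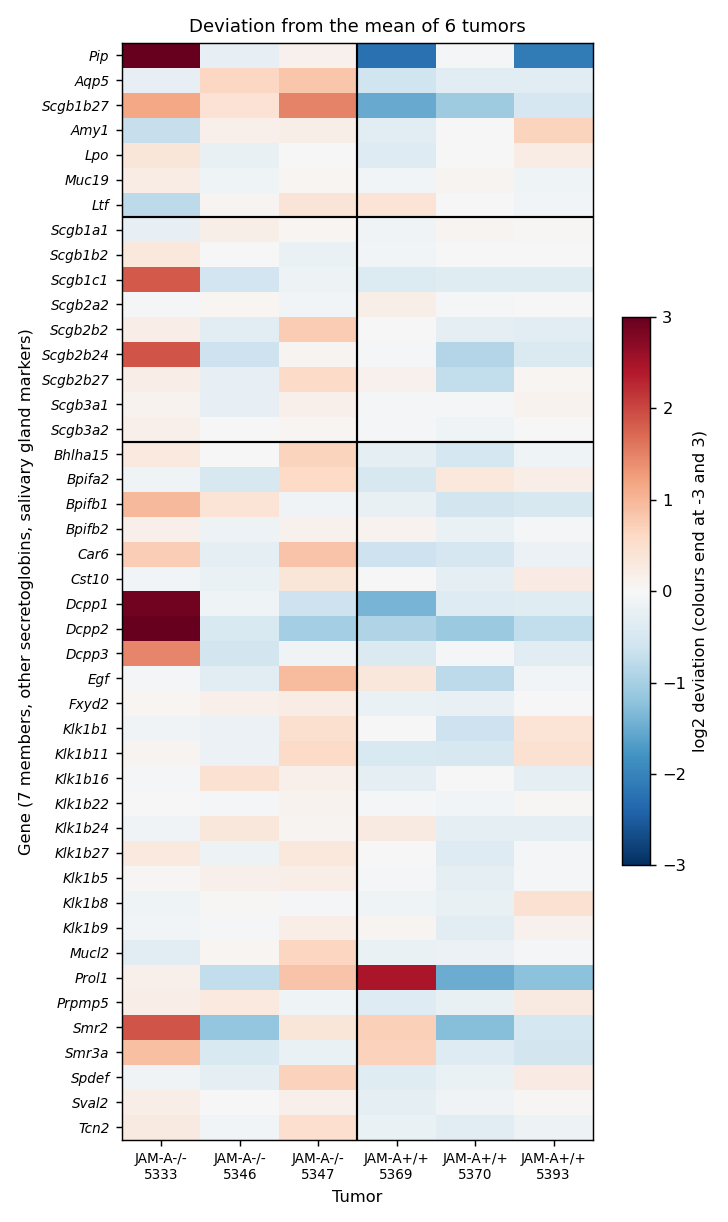
Log2 deviation of each gene from its mean over 6 tumors (colour, red higher and blue lower) for the 7 secretory genes, 9 other secretoglobins and 28 salivary gland markers (y axis), with 3 JAM-A-/- tumors left of 3 JAM-A+/+ tumors (x axis). Pip, Dcpp1, Dcpp2, Scgb1c1, Scgb2b24 and Smr2 are red in tumor 5333, Scgb1b27 is red in all JAM-A-/- tumors, and Prol1 is red in tumor 5369.

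Genes that drive the movement of salt and fluid had a median difference of 0.21 over 30 measured, or 0.37 without tumor 5333, and 7 met the criteria in the higher direction and 0 in the lower, beside 4.73% and 0.592% of all genes and an all-gene median of 0.09. Besides Cldn10 at 2.07, they included Car12, a carbonic anhydrase of ducts, at 0.61, the potassium channel gene Kcnn4 at 0.57 and Atp1b1, a subunit of the sodium pump, at 0.85. Kcnn4 was at 12.28, 12.52 and 12.88 in JAM-A-/- tumors 5333, 5346 and 5347, against 11.82, 11.99 and 12.17 in JAM-A+/+ tumors 5369, 5370 and 5393, and its groups did not overlap. Adjusted p from limma were 0.213 for Cldn10, 0.334 for Car12, 0.372 for Kcnn4 and 0.376 for Atp1b1. Of 24 measured regulators of secretory glands, 4 met the criteria in the higher direction and 0 in the lower, with a median of 0.24, or 0.42 without tumor 5333, beside the same shares of all genes. They were Tfap2b at 1.45, Xbp1, which controls the secretory endoplasmic reticulum, at 0.44, Esr1, the estrogen receptor, at 0.38, and Bhlha15. The all-gene median of 0.09 includes tumor 5333. Without that tumor 10.1% of all genes met the criteria in the higher direction. The rise of both list medians without it is therefore not shown to be particular to these lists.

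The remaining lists of gland genes had medians close to that of all genes. Of 24 measured apocrine and epithelial defence genes, 1 met the criteria, Apod, a lipocalin of apocrine cyst fluid, which was higher in JAM-A-/- tumors at 0.78, and the median was 0.10, or 0.15 without tumor 5333. Of 5 relatives and neighbours of Pip, 0 met the criteria in either direction, with a median of 0.10, or 0.19 without that tumor. The neighbours with the highest means, the taste receptor genes Tas2r135 and Tas2r137, had differences of -0.03 and -0.04, which were 0.04 and 0.03 after quantile normalization of all probe sets. Over all 18 lists with overlaps counted once, 27 of 231 genes (11.7%) met the criteria in the higher direction and 2 (0.866%) in the lower, beside the 4.73% and 0.592% of all genes. The choice of the lists with earlier results known may have raised these shares. Without tumor 5333 the count in the higher direction was 54, and the share of all genes was then 10.1%. After quantile normalization of all probe sets the list counts were 17 in the higher and 6 in the lower direction, and 2.86% and 0.873% of all genes. Of the 231 genes, 0 had an adjusted p under 0.05 from limma while 33 had an unadjusted p under 0.05.

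Markers of other sources of these secretions were counted beside the results. Over all genes 4.73% met the criteria in the higher and 0.592% in the lower direction, with a median difference of 0.09. Of 17 neutrophil markers, which bear on Ltf, 0 met the criteria, their median was 0.13, and their summed level was 13.75 to 14.16 in JAM-A-/- and 13.66 to 13.77 in JAM-A+/+ tumors. Those with the highest means were Lcn2, an iron-scavenging lipocalin, and Prtn3, a granule protease, with differences of 0.31 and 0.36. Lcn2 alone was at 13.65 to 14.11 in JAM-A-/- and 13.58 to 13.68 in JAM-A+/+ tumors, so the summed level was mostly that of Lcn2. It was also listed among the epithelial defence genes, so the sum is not a measure of neutrophils. Of 15 measured milk genes, which bear on Ltf and Lpo, 1 met the criteria in the higher direction (Mfge8 at 0.49) and 2 in the lower (Csn1s1 at -1.70 and Btn1a1 at -0.75), with a median of -0.03 and summed levels of 14.17 to 14.56 in JAM-A-/- and 14.06 to 14.84 in JAM-A+/+ tumors. The casein gene Csn1s1 was at 8.15, 8.9 and 7.78 in JAM-A-/- tumors 5333, 5346 and 5347, against 9.15, 11.28 and 9.49 in JAM-A+/+ tumors 5369, 5370 and 5393. Its high value in tumor 5370 stood in the JAM-A+/+ tumor in which Pip was highest, at 7.39, a match that was not tested. Pip was at similar levels, 7.2 and 7.57, in JAM-A-/- tumors 5346 and 5347, without such a Csn1s1 value. In tumor 5333, where Pip peaked at 11.93, Csn1s1 was not high either. Other milk genes, chosen after their values were seen, also peaked in tumor 5370. Csn1s2a, Csn2 and Glycam1 were at 11.04, 11.96 and 8.53 there, and at most 7.95, 9.7 and 5.78 elsewhere. Csn3 and Wap were instead highest in tumors 5347 and 5333. The 15 genes deviated from their means by 0.89 on average in tumor 5370 and by -0.58 to 0.16 in the others. Without that tumor the differences were -1.04 for Csn1s1 and -0.48 for Btn1a1.

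Among tissue markers, median differences were 0.15 for 12 luminal genes (1 met the criteria in the higher direction), 0.17 for 11 basal genes (4), 0.16 for 9 adipocyte genes (0), 0.62 for 12 skeletal muscle genes (3) and 0.25 for 10 keratinocyte genes (1), and 0 met them in the lower direction. Over all genes the median was 0.09, and 4.73% met the criteria in the higher and 0.592% in the lower direction. The luminal gene was Prom1 at 1.09, and the basal genes were the contractile genes Acta2 at 0.90, Tagln at 0.60 and Cnn1 at 0.44 and the cadherin gene Cdh3 at 0.49. The muscle genes were Acta1, Myh1 and Myh2 at 1.31, 1.29 and 0.70, and the keratinocyte gene was Sprr1a at 0.73. The adipocyte genes with the highest means, Fabp4 and Lipe, had differences of -0.14 and 0.22. Skeletal muscle markers summed to 10.88 to 11.82 in JAM-A-/- and 9.97 to 11.25 in JAM-A+/+ tumors, and keratinocyte markers were highest in tumor 5346, at a sum of 10.63 against 8.77 to 8.97 elsewhere. Without tumor 5333 the medians were 0.29 for luminal, 0.19 for basal, 0.36 for adipocyte, 0.80 for skeletal muscle, 0.35 for keratinocyte, 0.06 for neutrophil and -0.06 for milk genes. No all-gene median was computed without that tumor, and 10.1% of all genes then met the criteria in the higher direction. The part of these sources in the differences of the 7 genes was not tested.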

How the data were processed

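RNA of 6 tumors was hybridized to 1 array each. The authors deposited log2 values with 2 decimals, and the submitters' processing notes name RMA and Affymetrix Expression Console 1.1. The sources used here do not give its settings or any filter. RMA gives all arrays 1 distribution of probe intensities, so total RNA cannot be compared. Arrays give no read depth, and the 3 tumors per group limit the precision. Tumor numbers do not pair the groups, no batch is given, and an exact permutation test of 3 against 3 tumors cannot go below p = 0.1.

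With limma 3.58.1 (R 4.3.3; lmFit and eBayes, genotype as the only term), all 35557 probe sets were fitted and p-values adjusted together by Benjamini-Hochberg. The criteria were a fold of 1.3 or more with p under 0.05 before adjustment, chosen here to fit the entries of the study's signature table, whose cutoffs are not stated. The platform annotation pairs 21789 probe sets with 1 symbol and 1621 with several, which were not named, and 12147 are unnamed here. Of the first, 21698 matched the RefSeq gene table of GRCm38.p6. The steps were tested on simulated data.

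The 7 genes and the 18 lists were chosen with earlier results of these data known. Named are the 7 genes, F11r, from each list up to 4 genes meeting the criteria, lowest p first, otherwise up to 2 by mean, and the 5 genes nearest to each of the 7 whose range was at least 1, with exceptions stated. Alternatives were 3 other scalings, another choice of probe set, array weights, a robust prior fitted along intensity, leaving out the 40% dimmest probe sets, a fold of 1.5 and leaving out each tumor.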

Additional observations from a re-analysis of the deposited data

How the results depend on the processing

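The 7 secretory genes kept the direction of their differences under each other scaling of the arrays and each other choice of probe set, and their differences moved by less than 1 SD between tumors. Pip ranged from 2.91 to 2.99 and Scgb1b27 from 1.87 to 2.11 over the scalings, Aqp5 from 0.63 to 0.87, and the median of all genes was 0.07 after quantile normalization of all arrays, 0.15 after centring on array medians and 0.00 after quantile normalization on listed probe sets alone, a scaling added after the data were seen. With tumors left out in turn, Amy1, Lpo and Ltf changed sign as described. The adjusted p of F11r ranged from 0.00357 to 0.0839 with 1 tumor left out, from limma, exceeding 0.05 without tumor 5333, 5369, 5370 or 5393, and stayed under 0.05 in the other alternatives run. Of the 231 listed genes, the 27 that met the criteria in the higher direction became 17 after quantile normalization of all probe sets, 16 after that of the listed ones, 45 with array weights, 16 at a fold of 1.5, and 19 to 54 with 1 tumor left out, the highest without tumor 5333. The 2 in the lower direction became 6 with either quantile normalization and 1 to 6 with 1 tumor left out (1 without 5370 or 5393, 4 without 5346, 6 without 5369). Of all genes, 10.1% met them in the higher direction without tumor 5333, 2.86% after quantile normalization of all probe sets, 1.80% after that of the listed ones and 6.57% with array weights. Of 38 named list genes, 26 met the criteria and none of these changed sign in the alternatives run. Of the others, 6 did: Duoxa1 was at -0.03 after either quantile normalization, Tas2r135 and Tas2r137 were at 0.04 and 0.03 after that of all probe sets and at 0.03 and 0.02 after centring, and with 1 tumor left out Fabp4 ranged from -1.0 to 0.43, Lipe from -0.12 to 0.39, Pxdn from -0.04 to 0.37, Tas2r135 from -0.15 to 0.05 and Tas2r137 from -0.08 to 0.04. With 1 tumor left out, 24 to 32 of the 38 kept their direction and their side of the criteria. The causes were not tested, except that a fold of 1.5 is stricter by construction. With 3 tumors per group, probe sets without a detection call and near-identical gene copies, small differences of Amy1, Lpo and Muc19 could not be told from the spread.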

Other observations

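Tumor 5333 stood apart in further genes, a selection of which is given here, chosen after their values were seen. The major urinary protein gene Mup5 was at 10.49 in tumor 5333 and at 4.98 to 7.71 in the other 5 tumors, and Ccl28, a chemokine of mucosal and exocrine glands, was at 8.14 against 5.72 to 6.06. Oit1 was at 7.93 against 5.29 to 5.84, Acpp, a secreted acid phosphatase, at 7.9 against 5.36 to 6.06, and Rgs2, a regulator of G protein signalling, at 10.17 against 7.07 to 8.26. Dcpp3, the third demilune cell and parotid protein gene, was at 7.92 against 5.9 to 6.38. In the opposite direction, the peptide transporter gene Slc15a2 was at 7.85 in tumor 5333 and at 9.44 to 9.78 in the others, B4galt6 at 7.33 against 8.58 to 9.46, and the membrane mucin gene Muc15 at 10.16 against 11.21 to 11.82. By the distance of Pip to all genes, Dcpp2 and Dcpp1 stood nearest, and by the gap between tumor 5333 and the next tumor Dcpp2 (4.64) exceeded Pip (4.36), followed by Dcpp1 (3.02).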
